A study of Homo sapiens with 12 samples.

Results

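The genes described here mark the epithelial and the mesenchymal state of a cell, and their chromatin was read in U2OS, a human osteosarcoma cell line, with and without a forced pioneer transcription factor. There are 10 such genes among 19970 protein-coding genes on chromosomes 1 to 22 and X. They were chosen by name for their known roles, with earlier results of these data known. Each gene was examined with 50 kb on each side, and every peak of the 9 deposited peak lists that overlapped this window was counted. The 4 epithelial genes are CDH1 (chr16:68737292-68835537, forward strand), EPCAM (chr2:47369311-47387020, forward), GRHL2 (chr8:101492439-101681200, forward) and ESRP1 (chr8:94641174-94707466, forward). The 6 mesenchymal genes are CDH2 (chr18:27932879-28177130, reverse), VIM (chr10:17228241-17237593, forward), ZEB1 (chr10:31318417-31529804, forward), ZEB2 (chr2:144384081-144520119, reverse), SNAI1 (chr20:49982980-49988886, forward) and SNAI2 (chr8:48917598-48921429, reverse). Positions are on GRCh38 (hg38). The windows measure 771 kb for the epithelial and 1211 kb for the mesenchymal genes.

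Epithelial cells are joined by E-cadherin (CDH1) and carry the adhesion molecule EPCAM, while GRHL2, a transcription factor, and ESRP1, a splicing regulator, maintain the epithelial programme. Mesenchymal cells carry N-cadherin (CDH2) and the intermediate filament vimentin (VIM), and ZEB1, ZEB2, SNAI1 (Snail) and SNAI2 (Slug) are zinc-finger repressors that bind E-boxes, CDH1's among them. U2OS is of bone origin and grows as a mesenchymal line. FOXA2 is a forkhead factor of endoderm and liver, and SOX2 a factor of pluripotent and neural progenitor cells. Both are called pioneer factors because they can bind DNA in closed chromatin.

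The 12 samples fall into 6 groups of 2. A first set, named the FOXA2 set below, compares samples labelled wild type with a Tet-on line of full-length FOXA2 and with a Tet-on line of FOXA2 lacking its C-terminal domain (FOXA2dCTD in the labels, the CTD deletion below). The SOX2 set holds samples labelled wild type whose title also names a SOX2 cell line, a Tet-on line of full-length SOX2, and a Tet-on line of SOX2 joined to the CTD of FOXA2 (the fusion below). The FOXA2 constructs carry a Flag tag, per the design text of the series. Construct samples received doxycycline at 500 ng/ml for 4 days. Wild-type samples have no genotype or treatment entered, although the protocol text on doxycycline stands with every sample, so whether they received it is not known. Whether a line is a clone or a pool is not given in the sources used here. ATAC-seq, in which the Tn5 transposase cuts accessible DNA, was the assay, and the deposited values are peak lists without read counts, so depth is unknown. The FOXA2 set has 1 list per library and the SOX2 set has 1 list per group, made with the IDR procedure (irreproducible discovery rate), which keeps peaks that rank alike in both inputs. The lists differ in length: 19862 and 25088 peaks for the libraries labelled wild type, 161136 and 57946 for full-length FOXA2, 78820 and 146854 for the CTD deletion, and, at a global IDR of at most 0.05, 48142 for the wild type of the SOX2 set, 65628 for SOX2 and 75544 for the fusion. Replicate 2 of the wild type and of full-length FOXA2 had no mitochondrial peak and a stricter lowest −log10 p than the other 4 lists, and these are treated as 2 kinds of list. Counts are therefore given also at equal numbers of peaks, where every list of a set is reduced to its highest-ranked peaks at the length of the shortest. Of the osteoblast markers with an annotated start, SPARC had a start-site peak in 9 of 9 lists, RUNX2 in 7, BGLAP in 2 and ALPL in none, and of the hepatocyte markers HNF4A had one in wild type replicate 1 and in no other list. With 2 libraries against 2, an exact two-sided permutation test cannot go below 0.333, and the SOX2 set has no replicate lists, so no difference below was tested. The titles call the samples of a group biological replicates, without saying whether they came from separate cultures.

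To show starts that the lists covered beside starts that they did not, 5 promoter sequences of the mesenchymal genes are given, each from 250 bases before to 50 bases after an annotated start, from the RefSeq table of GRCh38.p14. The table held 11 promoters of 4 members: VIM, ZEB2, CDH2 with 2 starts and ZEB1 with 7. Capitals mark matches, on either strand, to TGTTTAC or TATTTAC (forkhead), ACAATG or ACAAAG (SOX), CACCTG (the E-box read by SNAI and ZEB proteins) and AACCGG (part of the GRHL site). Among all 35116 promoters of the table, these are found in 3.42%, 2.67%, 10.8%, 16.1%, 20.6% and 7.23%, in the same order. A match is a description of letters, not of a bound site. The ZEB1 promoter at chr10:31318966-31319265 (forward) is shown because every one of the 9 lists had a peak that covered part of it and because it holds CACCTG 3 times:
ZEB1 start at 31319216: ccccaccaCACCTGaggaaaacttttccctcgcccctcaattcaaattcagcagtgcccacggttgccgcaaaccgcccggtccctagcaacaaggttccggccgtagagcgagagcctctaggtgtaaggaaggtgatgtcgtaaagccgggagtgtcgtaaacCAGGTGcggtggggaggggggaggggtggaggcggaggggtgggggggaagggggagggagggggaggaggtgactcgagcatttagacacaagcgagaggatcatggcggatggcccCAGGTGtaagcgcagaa
The ZEB1 promoter furthest downstream, chr10:31321410-31321709 (forward), holds TGTTTAC on both strands side by side, and no list covered it, those of the FOXA2 constructs included:
ZEB1 start at 31321660: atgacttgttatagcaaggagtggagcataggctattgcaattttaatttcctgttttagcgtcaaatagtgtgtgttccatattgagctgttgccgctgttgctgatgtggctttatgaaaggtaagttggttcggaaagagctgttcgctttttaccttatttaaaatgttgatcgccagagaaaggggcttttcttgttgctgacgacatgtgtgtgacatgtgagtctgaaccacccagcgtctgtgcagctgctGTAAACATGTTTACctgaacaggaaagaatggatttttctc
The single ZEB2 promoter, chr2:144520070-144520369 (reverse), is shown because no list covered it although the gene's window gained the most regions with SOX2; it holds ACAAAG once:
ZEB2 start at 144520119: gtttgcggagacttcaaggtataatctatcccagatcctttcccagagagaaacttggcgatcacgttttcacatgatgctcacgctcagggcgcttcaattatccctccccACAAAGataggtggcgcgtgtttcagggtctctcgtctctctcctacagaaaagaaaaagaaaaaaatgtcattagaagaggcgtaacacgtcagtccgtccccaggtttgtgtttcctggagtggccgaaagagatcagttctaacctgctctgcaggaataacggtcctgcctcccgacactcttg
The CDH2 promoter at chr18:28177081-28177380 (reverse) holds none of the 6 motifs and was covered over 300 bases with SOX2, over 162 bases in CTD deletion replicate 2 and in no other list:
CDH2 start at 28177130: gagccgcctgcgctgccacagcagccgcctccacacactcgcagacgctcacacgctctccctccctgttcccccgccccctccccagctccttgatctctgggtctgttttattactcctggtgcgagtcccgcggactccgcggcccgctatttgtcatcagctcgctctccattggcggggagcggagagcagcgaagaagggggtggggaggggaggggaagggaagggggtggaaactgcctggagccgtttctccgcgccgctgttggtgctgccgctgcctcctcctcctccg
The VIM promoter, chr10:17227991-17228290 (forward), also without any of the motifs, was covered over 144 bases in the wild type of the SOX2 set, 145 bases with the fusion and at most 9 bases elsewhere:
VIM start at 17228241: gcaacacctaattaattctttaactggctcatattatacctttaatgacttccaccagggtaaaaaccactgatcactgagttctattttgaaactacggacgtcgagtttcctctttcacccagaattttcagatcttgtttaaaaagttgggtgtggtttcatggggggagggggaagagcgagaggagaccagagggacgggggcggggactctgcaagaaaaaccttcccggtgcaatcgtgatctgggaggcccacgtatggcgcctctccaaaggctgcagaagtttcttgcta

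Start-site peaks were found at more of the mesenchymal than of the epithelial genes. A gene counts here if a peak lay within 1 kb of an annotated start. None of the 4 epithelial genes had such a peak in 8 of the 9 lists, and with SOX2 there were 2, EPCAM and ESRP1. Of the 6 mesenchymal genes, 3 and 3 had one in the libraries labelled wild type, 2 and 4 with full-length FOXA2, 3 and 5 with the CTD deletion, and 4 each in the wild type of the SOX2 set, with SOX2 and with the fusion. Over all 15818 protein-coding genes with an annotated start, the shares in the same order of lists were 38.5% and 36.7%, 66.2% and 58.1%, 51.7% and 66.4%, 57.6%, 60.1% and 55.0%. The epithelial share was thus below the background in all 9 lists. The mesenchymal share was below it in full-length replicate 1 and CTD deletion replicate 1 and above it in the other 7 lists, and ZEB2 had no start-site peak in any list. At equal numbers of peaks EPCAM remained with SOX2 and ESRP1 did not. For the 6 genes without a promoter in the RefSeq table, the 4 epithelial genes, SNAI1 and SNAI2, the start is the 5′ end of the gene record. Each of them was thus scored at 1 start, while ZEB1 had 7 and CDH2 had 2. The shares over all genes count every annotated start and were not redone with 1 start per gene.

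**Figure D1:**
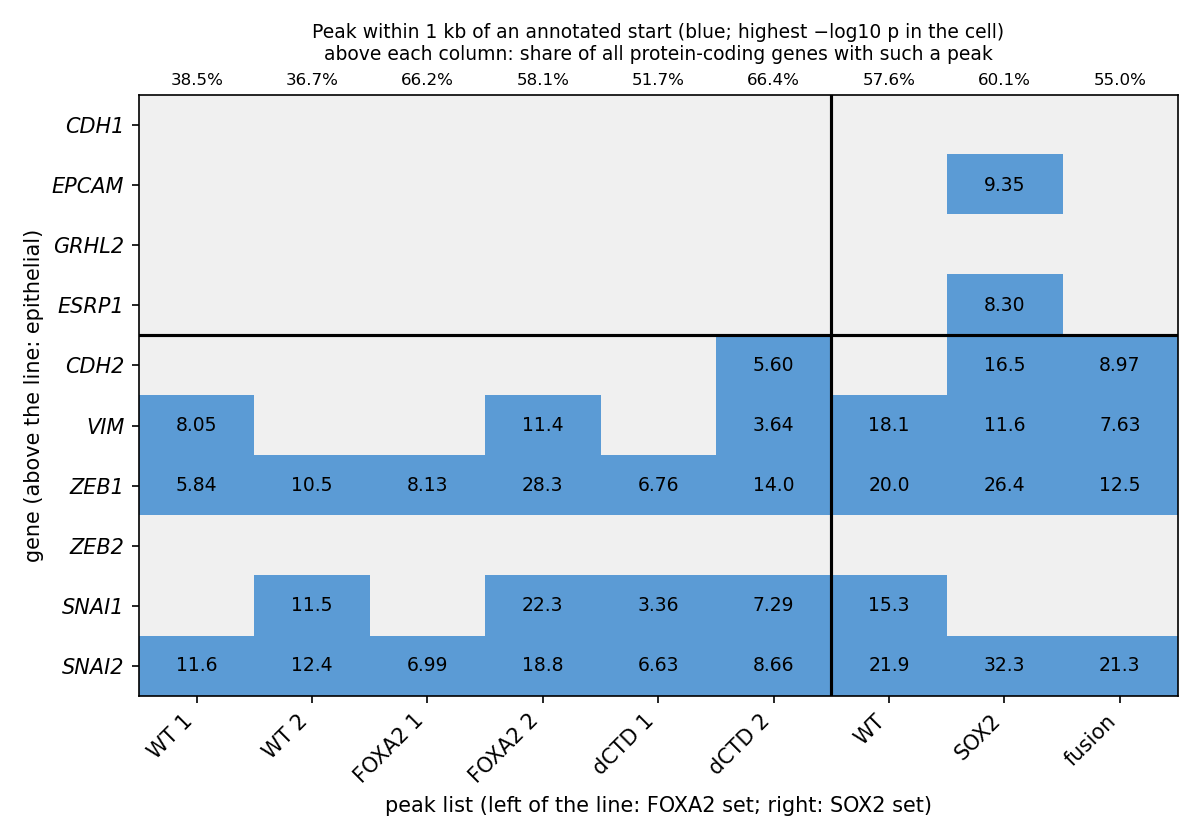
Peaks at the annotated starts of the 10 genes (rows) in the 9 lists (columns); a blue cell is a peak within 1 kb and its number the highest −log10 p of such a peak, as the authors gave it, and the percentages above are the shares over all protein-coding genes. ZEB1 and SNAI2 are blue in all 9 columns, CDH1, GRHL2 and ZEB2 in none.

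ZEB1 and SNAI2, both repressors of CDH1, had a start-site peak in all 9 lists, and at equal numbers of peaks ZEB1 kept one in all 9 and SNAI2 in all but CTD deletion replicate 1. At ZEB1 the highest −log10 p was 5.84 and 10.5 in the libraries labelled wild type, 8.13 and 28.3 with full-length FOXA2, 6.76 and 14 with the CTD deletion, 20 in the wild type of the SOX2 set, 26.4 with SOX2 and 12.5 with the fusion. At SNAI2 the values were 11.6 and 12.4, 6.99 and 18.8, 6.63 and 8.66, 21.9, 32.3 and 21.3 in the same order. Such values depend on the depth and the threshold of each list and rank peaks within a list, not between lists. In terms of the authors' fold enrichment over the background of each library, the SNAI2 start stood at 6.72 and 6.24 in the libraries labelled wild type, 4.35 and 8.52 with full-length FOXA2 and 4.14 and 5.34 with the CTD deletion. The construct libraries thus lay on both sides of the wild-type values with full length, and below both with the CTD deletion. The region chr2:47402713-47403808 in the EPCAM window was also lower with the CTD deletion, at 4.39 and 5.95 against 7.24 and 7.48 in wild type. At the ZEB1 start they overlapped, at 4.22 and 6.63 against 4.14 and 5.61. How many regions have lower values with the CTD deletion was not counted.

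VIM, CDH2 and SNAI1 had a start-site peak in part of the lists. VIM, whose protein is a hallmark of mesenchymal cells, had one in wild type replicate 1, in full-length replicate 2, in CTD deletion replicate 2 and in all 3 lists of the SOX2 set, where the −log10 p was 18.1 in the wild type, 11.6 with SOX2 and 7.63 with the fusion. SNAI1 had one in wild type replicate 2, full-length replicate 2, both libraries of the CTD deletion and the wild type of the SOX2 set (−log10 p 15.3). With SOX2 and the fusion this SNAI1 region, chr20:49982285-49983057, counted as lost, but both lists held an entry there that failed the IDR threshold. With SOX2 that entry had a global IDR of 0.350, from inputs of −log10 p 3.17 and 12.9, and with the fusion a global IDR of 0.172. CDH2, the cadherin of mesenchymal cells, had a start-site peak in CTD deletion replicate 2 (fold enrichment 3.99), with SOX2 (−log10 p 16.5) and with the fusion (8.97). The wild type of the SOX2 set had an entry at the CDH2 start at a global IDR of 0.305, which is above the threshold of 0.05. ZEB2 had no start-site peak in any list, and its nearest peaks lay between 7697 bp (full-length replicate 1) and 51552 bp (CTD deletion replicate 1) from the annotated start.

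The EPCAM region chr2:47369089-47370243, which spans the start, had a −log10 p of 9.35 with SOX2, and an entry in the wild type of its set at a global IDR of 0.0897. The ESRP1 region chr8:94642112-94642910 lies 938 bp from the start and had a −log10 p of 8.30 with SOX2, beside a wild-type entry overlapping this region at a global IDR of 0.112, which lay over 1 kb from the start. The nearest CDH1 peak lay 4566 bp from the start at the closest (full-length replicate 1), and the nearest GRHL2 peak 2435 bp (CTD deletion replicate 1).

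Other genes of both states, from lists of 30 names each that were set with earlier results of these data known, could be examined at the start for 16 epithelial and 17 mesenchymal genes. Among the epithelial ones, 3 and 2 had a start-site peak in the libraries labelled wild type, 7 and 4 with full-length FOXA2, 7 and 8 with the CTD deletion, 7 in the wild type of the SOX2 set, 6 with SOX2 and 4 with the fusion. Among the mesenchymal ones the counts were 7 and 7, 14 and 14, 14 and 15, 13, 14 and 13. The epithelial shares ran from 12.5% to 50.0% and lay below the share of all genes in each of the 9 lists, given above. The mesenchymal shares ran from 41.2% to 88.2% and lay above it in each. GRHL1, a relative of GRHL2, and JUP, the junction protein plakoglobin, had a start-site peak in all 9 lists. The scarcity of start-site peaks at the epithelial members thus did not extend to every gene with an epithelial role. ACTA2, the smooth-muscle actin, had a start-site peak in all 6 lists with a construct and in none of the 3 labelled wild type. It was chosen after its values were seen, and how many protein-coding genes show this was not counted. The share of all genes also differed in the FOXA2 set, at 38.5% and 36.7% in wild type and 51.7% to 66.4% with the constructs.

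Across the whole windows, 212 of 276021 regions of the FOXA2 set and 98 of 102872 of the SOX2 set lay near the 10 genes. A region is a merged stretch of overlapping peaks of a set's lists. The median number of peaks per 100 kb in epithelial windows was 0.993 and 0 in the libraries labelled wild type, 6.22 and 1.06 with full-length FOXA2, and 3.84 and 6.90 with the CTD deletion. In mesenchymal windows it was 0.896 and 0.939, 6.18 and 2.57, and 2.66 and 6.59. Over all protein-coding genes it was 0.927 and 0.897, 6.26 and 2.54, and 3.18 and 5.78. The order of both classes differed between the libraries labelled wild type and between those of full length, and in both libraries of the CTD deletion the epithelial median was the higher. At equal numbers of peaks the CTD deletion had 0.425 and 0.474 in epithelial and 0.145 and 0.908 in mesenchymal windows. Its replicates then differed in order, and with full length the mesenchymal median was the higher in both (1.12 and 0.627 against 0.805 and 0.252). In the SOX2 set the epithelial median was 2.63 in wild type, 2.16 with SOX2 and 2.46 with the fusion, the mesenchymal median 2.50, 3.81 and 4.34, and the median of all genes 2.36, 2.79 and 2.92. There the mesenchymal windows stood above all genes with both constructs and the epithelial windows below. At equal numbers of peaks that order stayed, but the mesenchymal median did not rise (2.50, 2.39 and 2.43). The epithelial median was then 2.63, 1.78 and 1.45, and that of all genes 2.36, 2.07 and 1.91. The mesenchymal median was above the epithelial one in 4 of 9 lists, in 6 at equal numbers of peaks, and in 8 when gene bodies alone were counted. It was so in 6 at a common −log10 p in the FOXA2 set, and in 5 with all SOX2-set entries whatever their IDR.

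**Figure D2:**
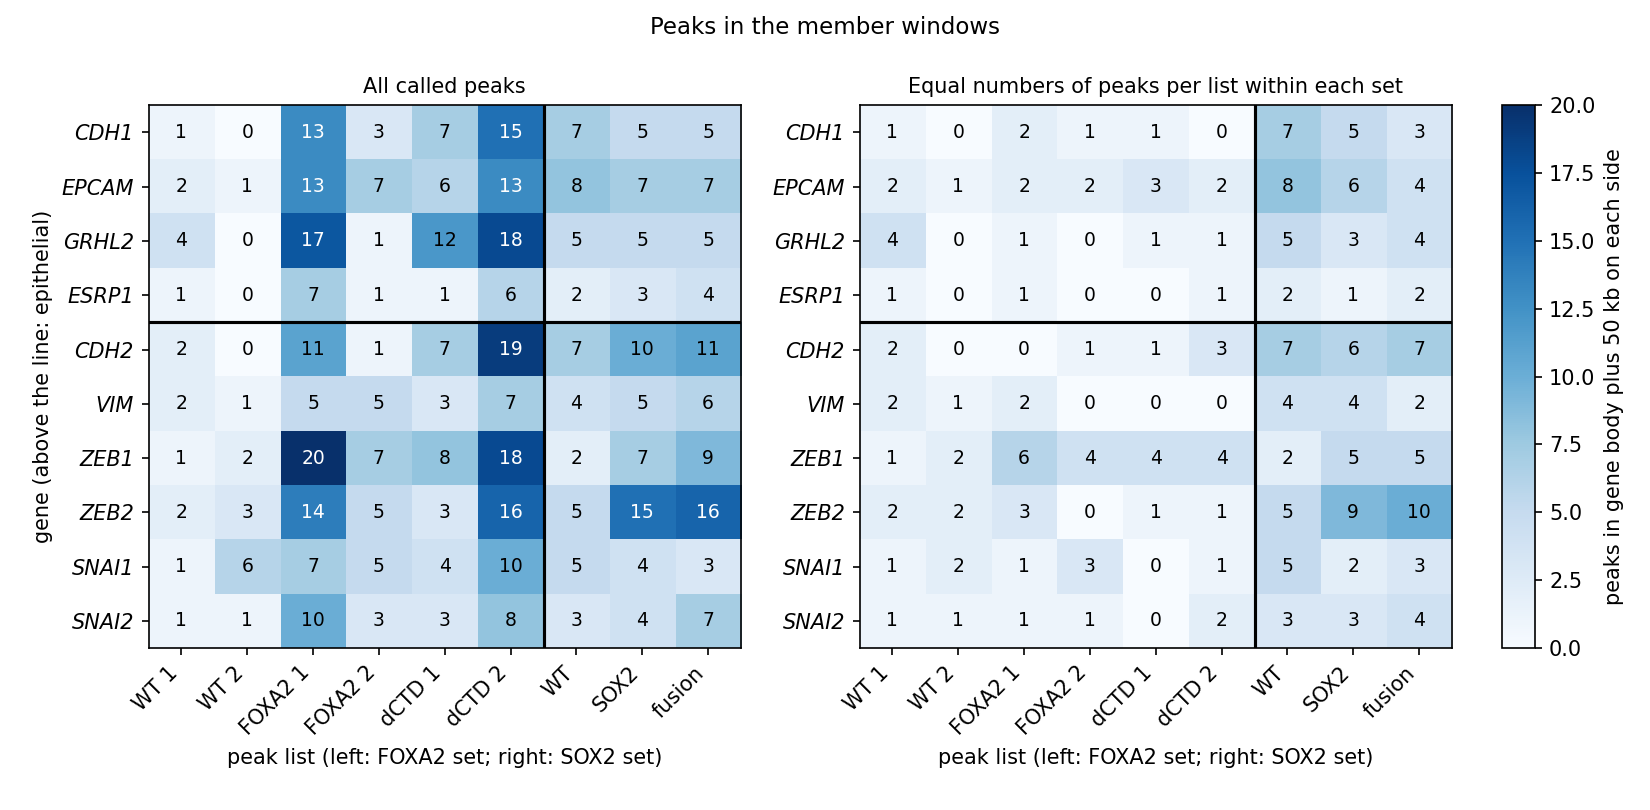
Number of peaks in each gene's window (rows) in each list (columns), with all called peaks on the left and with equal numbers of peaks per list on the right. ZEB2 has 5, 15 and 16 peaks in the wild type, SOX2 and fusion lists on the left, and 5, 9 and 10 on the right.

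In the epithelial windows of the FOXA2 set, listed as wild type, full length and CTD deletion with replicates 1 and 2, the CDH1 window held 1 and 0, 13 and 3, and 7 and 15 peaks. EPCAM had 2 and 1, 13 and 7, and 6 and 13. GRHL2 had 4 and 0, 17 and 1, and 12 and 18. Every construct library had more peaks than both wild-type libraries at CDH1 and EPCAM, and at GRHL2 full-length replicate 2 lay below wild type replicate 1. The median of all genes was likewise higher in every construct library (2.54 to 6.26 per 100 kb) than in wild type (0.927 and 0.897). How many genes were separated in this way was not counted. ESRP1 had 1 and 0, 7 and 1, and 1 and 6. With lists of equal length CDH1 had 1 and 0, 2 and 1, and 1 and 0, and EPCAM 2 and 1, 2 and 2, and 3 and 2. The construct and wild-type libraries then overlapped at all 4 epithelial genes.

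In the mesenchymal windows, in the same order, CDH2 had 2 and 0, 11 and 1, and 7 and 19 peaks, and VIM had 2 and 1, 5 and 5, and 3 and 7. ZEB1 had 1 and 2, 20 and 7, and 8 and 18. ZEB2 had 2 and 3, 14 and 5, and 3 and 16. The construct libraries lay above both wild-type libraries at VIM and ZEB1, and overlapped with them at CDH2 and ZEB2. SNAI1 had 1 and 6, 7 and 5, and 4 and 10, and SNAI2 had 1 and 1, 10 and 3, and 3 and 8. Every construct library was above both wild-type libraries at SNAI2, and they overlapped at SNAI1. The median of all genes was also higher in every construct library, as given above. At equal numbers of peaks ZEB1 had 1 and 2, 6 and 4, and 4 and 4, so that its 4 construct libraries stayed above both wild-type libraries. VIM then had 2 and 1, 2 and 0, and 0 and 0, with both CTD deletion libraries below the wild type. How many protein-coding genes show either separation at equal numbers of peaks was not counted.

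A region was called gained with a FOXA2 construct if both its libraries had a peak there and neither library labelled wild type did. With full-length FOXA2, 6 of 89 epithelial (6.74%) and 10 of 123 mesenchymal regions (8.13%) were gained, beside 9.06% of all regions. At least 1 gained region lay near 2 of 4 epithelial and 6 of 6 mesenchymal genes, beside 73.4% of protein-coding genes. With the CTD deletion, 11 of 89 epithelial (12.4%) and 13 of 123 mesenchymal regions (10.6%) were gained, beside 8.72% of all regions, near 3 of 4 and 6 of 6 genes, beside 68.8% of genes. These shares lay within a few percentage points of the background. Equal numbers of peaks left full length with 0 of 12 epithelial and 2 of 26 mesenchymal gains, beside 7.52% of all regions of that union. They left the CTD deletion with 0 of 12 and 1 of 26 (3.85%), beside 5.74%, so that its shares, above the background before, were then below it. The count depended on single libraries: without full-length replicate 2 the full-length gains were 41 and 52, and without full-length replicate 1 the mesenchymal gains were 16. Without CTD deletion replicate 1 its gains were 45 and 60, and without replicate 2 they were 20 and 21.

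Within one kind of list, single libraries can be set against each other, although their lowest −log10 p still differed. This minimum was 3.44 in wild type replicate 1 and 2.01 in every construct list compared with it. For wild type replicate 2 it was 5.43, beside 5.22 in its construct list. A construct peak weaker than the wild-type minimum could thus count as lacking in wild type. The pairs below were not recounted at a common −log10 p. Full-length replicate 1 had 41 epithelial and 56 mesenchymal regions that wild type replicate 1 lacked, where 51.4% of all regions were of this sort, and full-length replicate 2 had 11 and 17 that wild type replicate 2 lacked (13.6%). Against wild type replicate 1, CTD deletion replicate 1 had 20 and 24 (22.6%) and CTD deletion replicate 2 had 45 and 66 (45.7%). Regions of the wild-type library that the construct library lacked numbered 1 and 2, 0 and 3, 1 and 5, and 1 and 1 in these 4 pairs. Over all 276021 regions there were 4273, 5066, 4773 and 2836 of this sort, in the same order.

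EPCAM was the epithelial gene with the most gained regions per length. Its window gained 4 regions with full length and 4 with the CTD deletion, 3.40 per 100 kb in each case, a density that 2.49% and 1.15% of protein-coding genes reached. The strongest by the lower fold enrichment of both libraries was chr2:47322940-47323636, at -46023 bp from the start (distances are to the nearest annotated start of the gene, negative when upstream). Its fold enrichment was 6.64 and 5.80 with full length and 4.22 and 4.50 with the CTD deletion, with no peak in either library labelled wild type. None of the 4 lay inside the EPCAM gene. None of them remained at equal numbers of peaks. All 4 had an entry in the wild type of the SOX2 set.

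**Figure D3:**
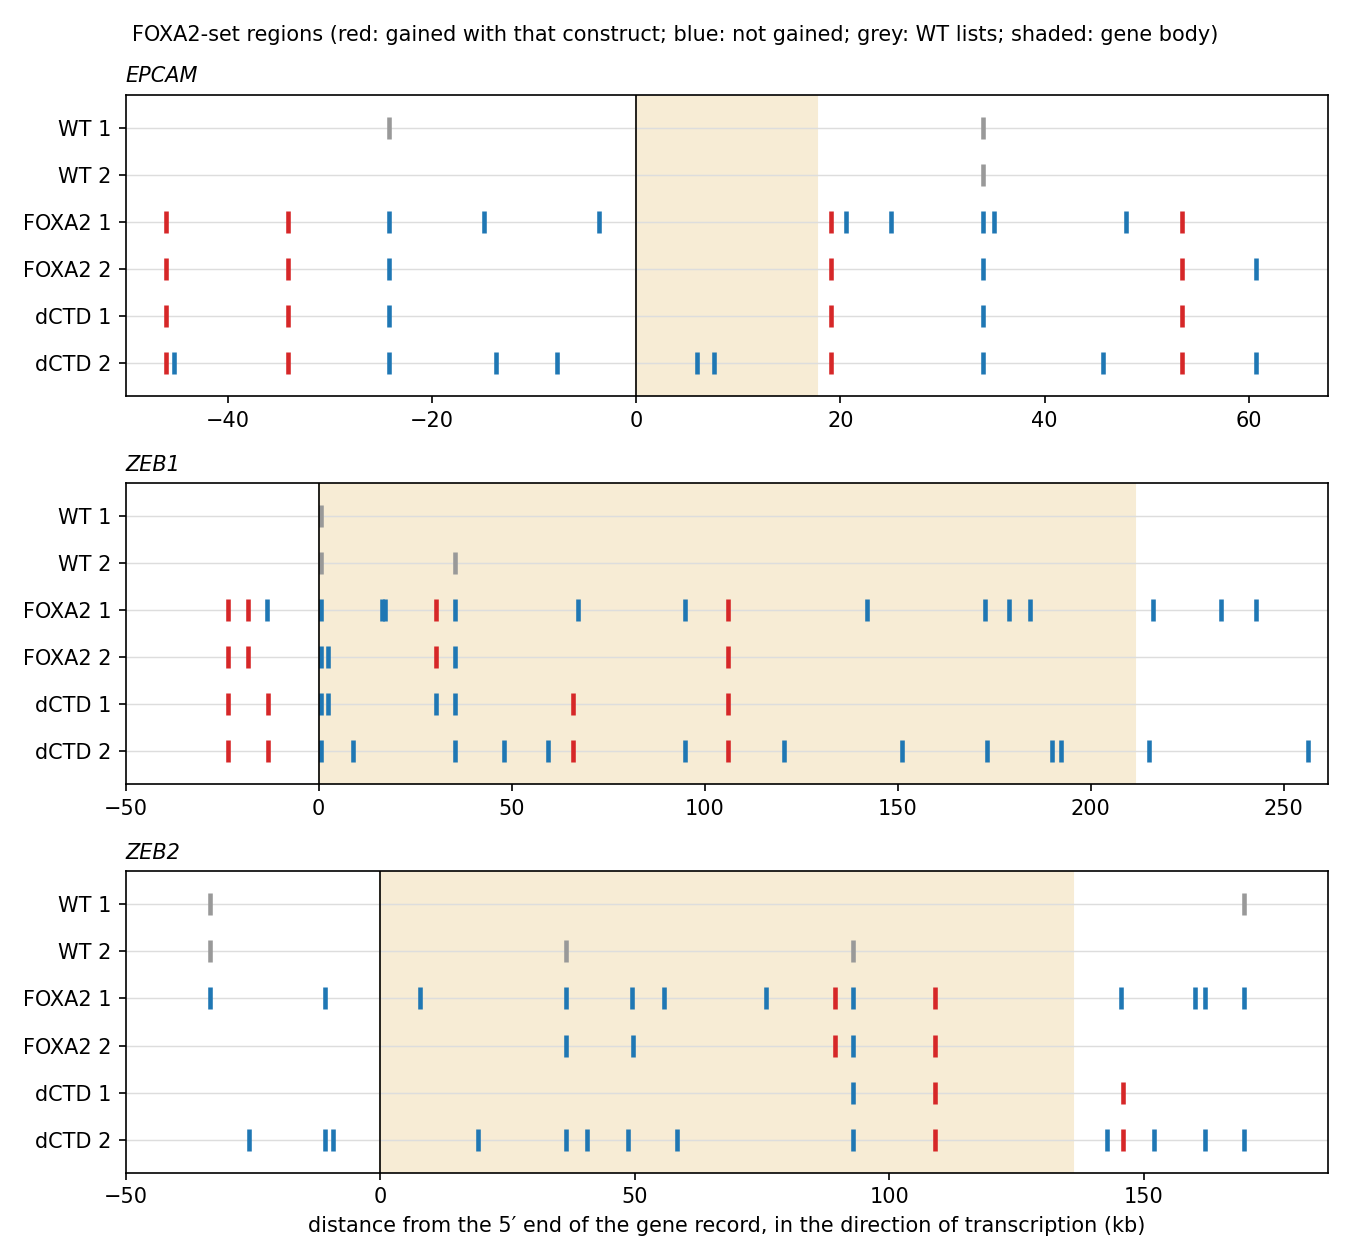
Regions of the FOXA2 set along EPCAM, ZEB1 and ZEB2, by distance from the 5′ end of the gene record in kb, 1 row per library; red marks are gained with the construct of that row, blue marks are not, grey marks belong to the libraries labelled wild type and the shading is the gene body. EPCAM shows 4 red marks in each construct library, all outside the gene.

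CDH1 gained 2 regions with full length and 4 with the CTD deletion. Its strongest with full length, chr16:68704169-68704756, at -32830 bp and within the neighbouring P-cadherin gene CDH3, had a fold enrichment of 4.47 and 5.80. With the CTD deletion the strongest was chr16:68707429-68708022, at -29567 bp, with 3.57 and 3.85. GRHL2 gained 0 regions with full length and 3 with the CTD deletion, the strongest at chr8:101538086-101538845 inside the gene (4.81 and 4.64). ESRP1 gained 0 with either construct.

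ZEB1 had the strongest gains among the mesenchymal genes. It gained 4 regions with each FOXA2 construct, a density that 33.6% of protein-coding genes reached with full length and 26.1% with the CTD deletion. The strongest with full length was chr10:31294445-31295179 at -23605 bp, with a fold enrichment of 8.19 and 8.86. The CTD deletion had 4.45 and 5.83 in this region. Inside the gene, chr10:31424215-31424865 at 102880 bp had 5.56 and 13.6 with full length and 5.56 and 4.76 with the CTD deletion. With equal numbers of peaks ZEB1 kept 2 gained regions with full length and 1 with the CTD deletion, and was the one member with any. About 11.2% and 10.8% of protein-coding genes had as many per length.

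The other mesenchymal genes gained 1 to 3 regions each with a FOXA2 construct. At CDH2, chr18:28102944-28103793, inside the gene, had a fold enrichment of 3.87 and 10.6 with full length and 3.90 and 6.93 with the CTD deletion. At VIM the strongest were chr10:17208720-17209353 with full length (5.52 and 5.11) and chr10:17215073-17215627 with the CTD deletion (3.90 and 4.30), both upstream. At ZEB2, chr2:144410729-144411619, inside the gene at 108945 bp, had 5.66 and 7.16 with full length and 4.13 and 4.09 with the CTD deletion. SNAI1 gained chr20:49942183-49942507 with full length (4.21 and 5.45), inside the neighbouring gene RNF114, and chr20:49964657-49965304 with the CTD deletion (2.99 and 2.75). SNAI2 gained chr8:48925530-48926018 at -4345 bp with full length (3.77 and 5.80) and chr8:48891439-48891889 with the CTD deletion (3.27 and 6.80). No gained region of either FOXA2 construct in these windows lay within 1 kb of a protein-coding start.

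Losses were few in the FOXA2 set. A region was called lost if both libraries labelled wild type had a peak there and neither library of the construct did. The wild-type lists were the shortest of the set, which limits how many regions could be called lost. With full length, 0 of 212 regions were lost (0.155% of all regions, and 1.99% of genes had one). With the CTD deletion 1 was lost (0.0576% of regions, 0.771% of genes), chr2:144553401-144553790 at -33476 bp from the ZEB2 start. Its fold enrichment was 4.64 and 4.37 in the libraries labelled wild type and 3.87 in full-length replicate 1, and the other 3 construct libraries had no peak there. Without wild type replicate 1 or without wild type replicate 2 the lost regions numbered 2 with either construct. Without full-length replicate 1 full length had 1, and without CTD deletion replicate 2 the CTD deletion had 2. With every list at equal length, 0 of 38 regions near the 10 genes were lost with full length and 1 of 38 with the CTD deletion. That 1 lay in the VIM window, and the ZEB2 window lost 0. Over all 51046 regions of that union, 2195 were lost with full length and 1714 with the CTD deletion.

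Regions gained with 1 FOXA2 construct and called in no library of the other were 3 for full length (1.65% of all regions), at VIM, ZEB1 and ZEB2, and 7 for the CTD deletion (1.94%). The latter were 2 at GRHL2, 2 at ZEB1, and 1 each at CDH2, ZEB2 and SNAI2. Full-length-only regions near epithelial genes numbered 0 of 89. Without full-length replicate 2 there were 63 full-length-only regions, without full-length replicate 1 there were 7, and without CTD deletion replicate 2 there were 6. Without CTD deletion replicate 1 the CTD-deletion-only regions were 74, without its replicate 2 they were 21, and without full-length replicate 1 they were 13. At equal numbers of peaks there were 0 of either kind. At a common −log10 p of 5.43 the order was the other way, with 5 full-length-only regions and 1 CTD-deletion-only region.

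The wild-type lists of both sets did not show these windows alike. Of the 6 epithelial gains of full-length FOXA2, 5 were present in the wild-type list of the SOX2 set at a global IDR of at most 0.05, and all 6 had some entry there. Of the 10 mesenchymal regions, 0 had an entry there. Across the genome, that wild type held 20.9% of the full-length gains. For the CTD deletion 6 of 11 epithelial and 4 of 13 mesenchymal gains were called there, beside 26.4% of all. Most of the epithelial gains with full-length FOXA2 were therefore open in U2OS samples labelled wild type in the other set. Whether the sets differ in depth, cells or handling was not tested.

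In the SOX2 set a region was called gained if the construct's list held it at a global IDR of at most 0.05 and the wild-type list did not. Both constructs are set against the same wild-type list, so their values below are side by side and not independent. With SOX2, 7 of 33 epithelial (21.2%) and 28 of 65 mesenchymal regions (43.1%) were gained, beside 33.9% of all regions. With the fusion, 8 of 33 (24.2%) and 35 of 65 (53.8%) were gained, beside 43.7% of all regions. Every one of the 10 genes had a gained region with each construct, beside 75.3% and 76.8% of protein-coding genes. The mesenchymal share was above and the epithelial share below the background with both constructs, and ZEB2 held the largest part of the mesenchymal gains. Without the ZEB2 window, a setting chosen after its values were seen, 17 of 47 mesenchymal regions (36.2%) were gained with SOX2 and 24 of 47 (51.1%) with the fusion. VIM (2 of 7), SNAI1 (2 of 7) and SNAI2 (1 of 8) lay below the background with SOX2. At equal numbers of peaks the order was the same: 4 of 27 epithelial and 16 of 51 mesenchymal regions with SOX2, beside 27.5% of all, and 3 of 27 and 19 of 51 with the fusion, beside 31.1%. Per length, the median was 0.929 gained regions per 100 kb in epithelial and 1.86 in mesenchymal windows with SOX2, where all genes had 0.932, and 1.02 and 2.53 with the fusion, where all genes had 0.972.

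Part of these gains were crossings of the IDR threshold. With SOX2, 3 of the 7 epithelial and 12 of the 28 mesenchymal gains had a wild-type entry that failed the threshold, beside 37.4% of all gains. With the fusion it was 3 of 8 and 10 of 35, beside 28.1% of all. Gains with no wild-type entry of any kind numbered 4 and 16 with SOX2 and 5 and 25 with the fusion.

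**Figure D4:**
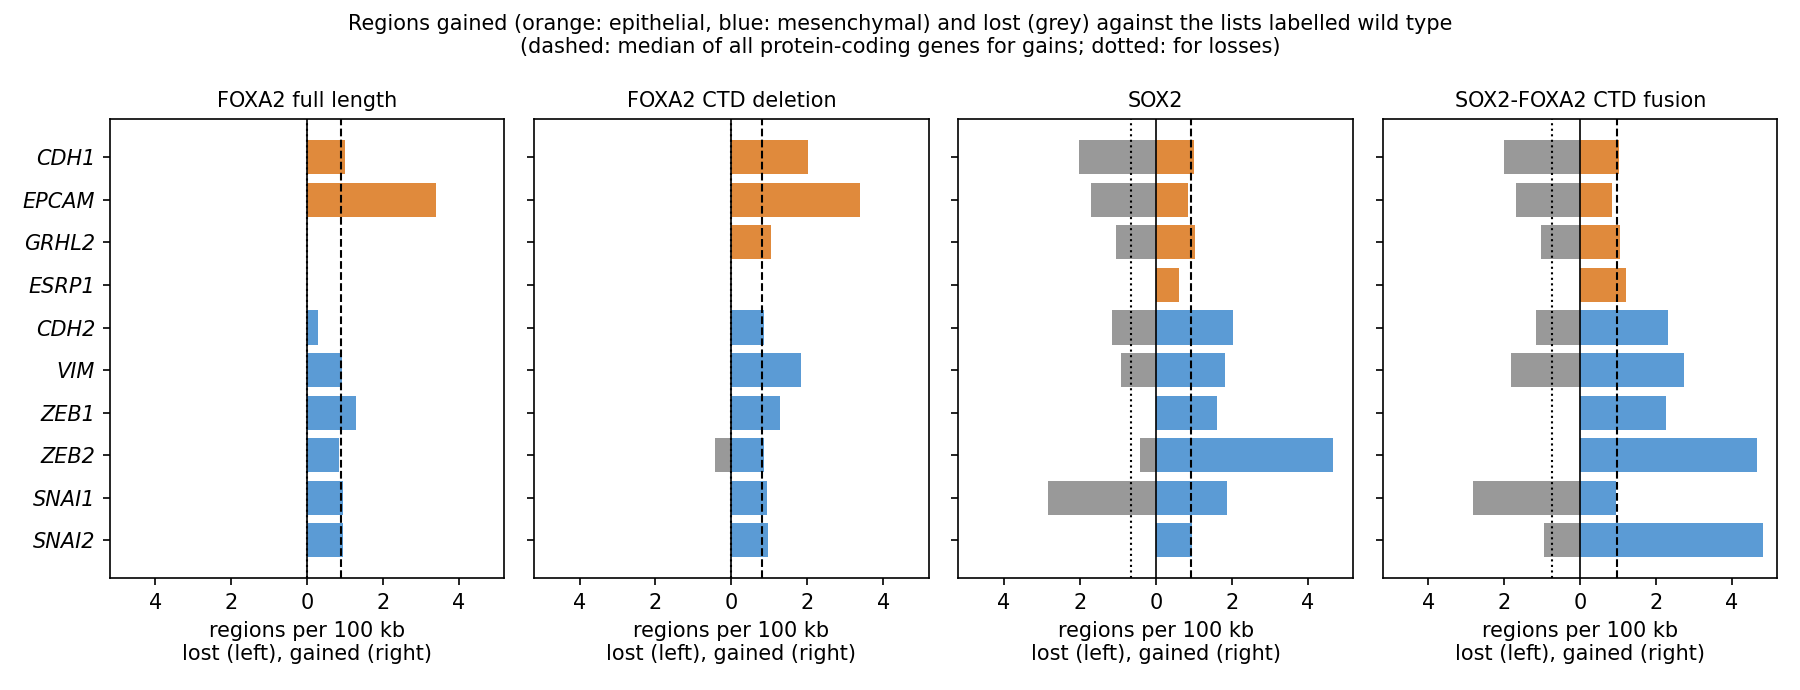
Regions gained (bars to the right; orange for epithelial and blue for mesenchymal genes) and lost (grey bars to the left) per 100 kb of window for each gene and construct, with the median of all protein-coding genes as a dashed line for gains and a dotted line for losses. ZEB2 reaches 4.66 with SOX2 and with the fusion and SNAI2 4.82 with the fusion, while EPCAM reaches 3.40 with both FOXA2 constructs.

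ZEB2 had the most gained regions. Its window held 5 peaks in wild type, 15 with SOX2 and 16 with the fusion, and 5, 9 and 10 at equal numbers of peaks. SOX2 gained 11 regions and the fusion 11, or 4.66 per 100 kb in each case. Only 0.290% and 0.746% of protein-coding genes had as many or more per length, and at equal numbers of peaks, with 5 and 7 gained regions, 3.76% and 1.18%. The highest with SOX2 was chr2:144461161-144461804, inside the gene at 58637 bp from the start, with a −log10 p of 25.5 with SOX2 and 12.9 with the fusion. The highest with the fusion was chr2:144466450-144467160 at 53314 bp, with 14 and 23.3. Neither had any entry in wild type. Of the ZEB2 gains, 9 with SOX2 and 8 with the fusion lay inside the gene, and 8 and 9 had no wild-type entry. A region of the gene body that was called in all 3 lists, chr2:144426632-144427939, had a −log10 p of 20.6 in wild type, 44.1 with SOX2 and 36.3 with the fusion.

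**Figure D5:**
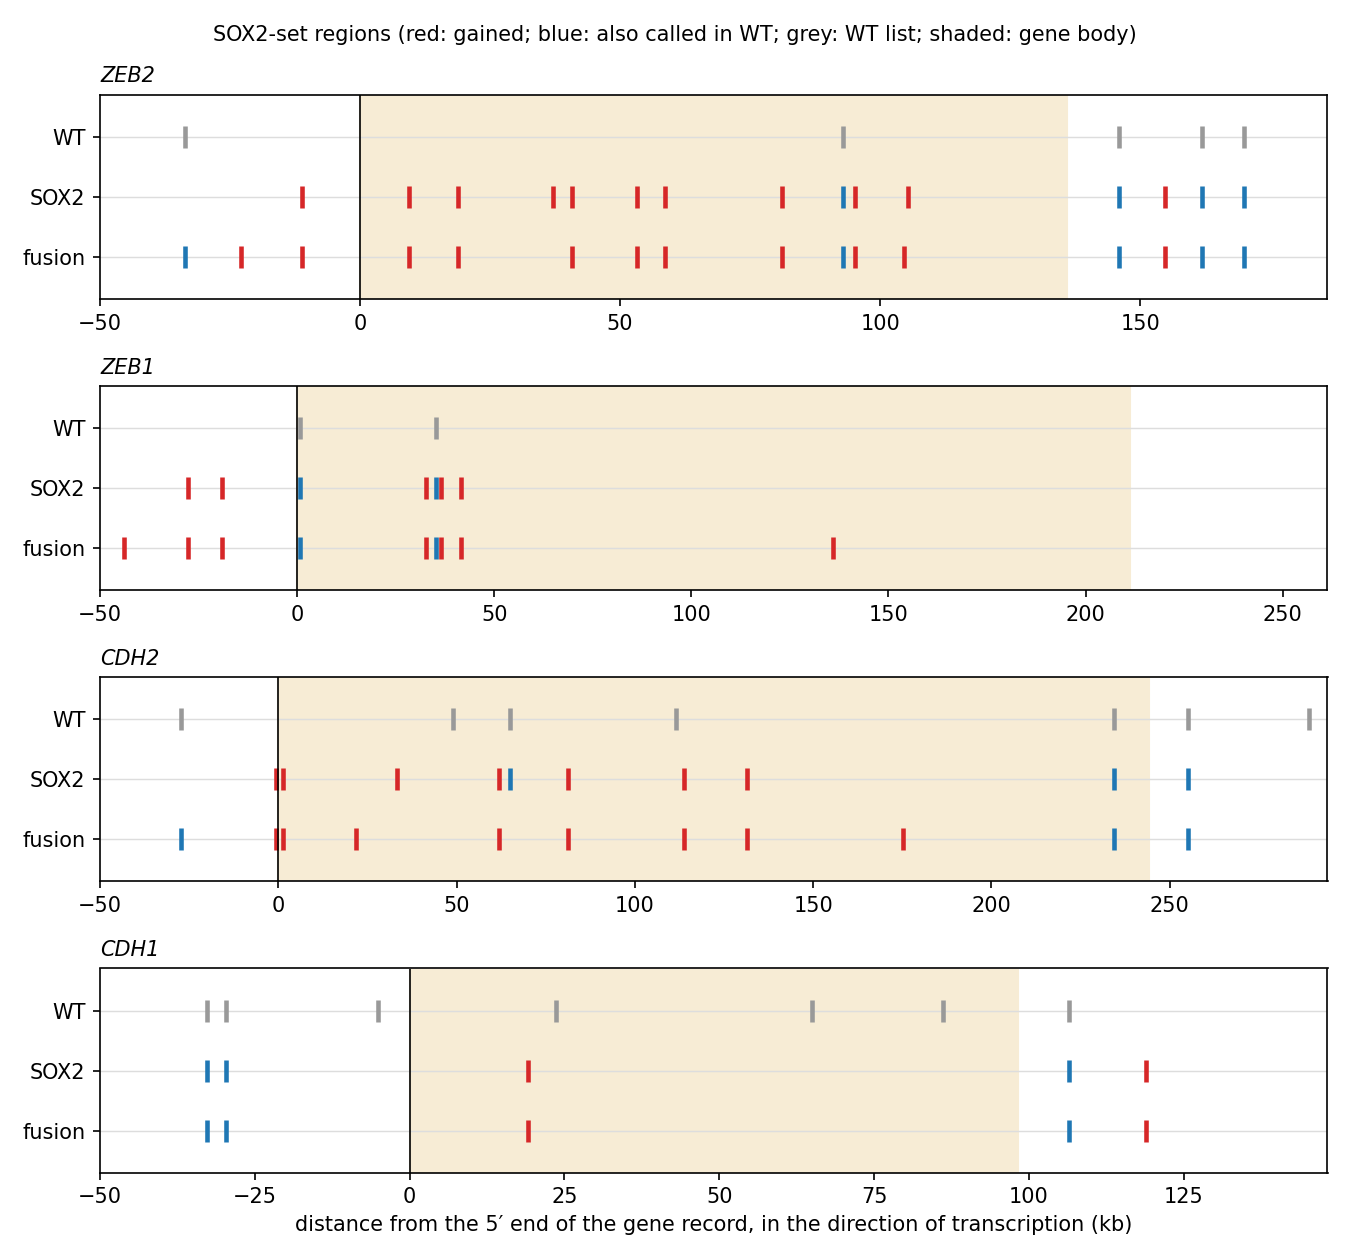
Regions of the SOX2 set along ZEB2, ZEB1, CDH2 and CDH1, by distance from the 5′ end of the gene record in kb, 1 row per list; red marks are gained, blue marks are also called in wild type, grey marks are the wild-type list and the shading is the gene body. Red marks run through the body of ZEB2, and at CDH1 4 grey marks have no mark below them.

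ZEB1 gained 5 regions with SOX2 and 7 with the fusion, from 2 peaks in wild type to 7 and 9. Per length, 28.2% and 17.3% of protein-coding genes gained as many or more. None of these gains had a wild-type entry at any IDR. The highest with both was chr10:31359726-31360366, inside the gene at 38386 bp, with a −log10 p of 22.2 with SOX2 and 21.2 with the fusion. Its gains numbered 4 and 3 at equal numbers of peaks.

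CDH2 gained 7 regions with SOX2 and 8 with the fusion, all overlapping the gene, and lost 4 with each. Per length, 13.4% and 16.2% of protein-coding genes gained as many or more. The highest gain with SOX2 was the region over the start, chr18:28176757-28178640, which runs past the gene's 5′ end. With the fusion the peak called in this region, chr18:28177931-28178640, lay wholly upstream of the gene. With the fusion it was chr18:28063071-28063846, with a −log10 p of 11.9 and 7.10 with SOX2. Wild-type entries that failed the threshold lay under 4 gains with SOX2 and 4 with the fusion.

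VIM gained 2 regions with SOX2 and 3 with the fusion, and lost 1 and 2. Per length, 20.9% and 10.2% of protein-coding genes gained as many or more. The highest gains were chr10:17214796-17215749 with SOX2 (14.6) and chr10:17183362-17184257 with the fusion (11.1), the latter inside the neighbouring gene TRDMT1. Among the lost regions, chr10:17200708-17201903, over the start of TRDMT1, had a −log10 p of 27.8 in wild type and 25.3 with SOX2, and with the fusion an entry at a global IDR of 0.254.

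SNAI2 gained 1 region with SOX2 and 5 with the fusion, 4.82 per 100 kb with the fusion, a density that 0.586% of protein-coding genes reached. The counts were 1 and 2 at equal numbers of peaks, and 6.81% of genes had as many as the latter. The highest with the fusion was chr8:48914761-48915836, at 6131 bp from the start, with a −log10 p of 9.41 and a SOX2 entry at a global IDR of 0.188. The highest with SOX2 was chr8:48970375-48970841, at -49179 bp, with 10.7, which was 5.84 with the fusion. SNAI1 gained 2 and 1 regions and lost 3 and 3, its start among them. Its lost regions stood at 2.83 per 100 kb with each construct, which 2.67% of genes reached with SOX2 and 3.39% with the fusion.

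The epithelial genes gained 1 to 3 regions each. At CDH1 the highest was chr16:68855764-68856685, inside the neighbouring gene TANGO6, with a −log10 p of 13.4 with SOX2 and 9.27 with the fusion. GRHL2 gained 3 regions with each construct, the highest at chr8:101459612-101460724, at -32271 bp, with 19.2 and 16.5 and no wild-type entry. EPCAM gained its start region with SOX2 and chr2:47355438-47356079 with the fusion (6.05). ESRP1 gained the region near its start with SOX2 and 2 regions inside the gene with the fusion, the higher at chr8:94670455-94671290 (8.10).

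Losses were spread over both classes. With SOX2, 9 of 33 epithelial (27.3%) and 9 of 65 mesenchymal regions (13.8%) were lost, beside 17.0% of all regions, and with the fusion 9 of 33 (27.3%) and 10 of 65 (15.4%), beside 17.1%. A lost region lay near 3 of 4 epithelial and 4 of 6 mesenchymal genes with each construct, beside 61.0% and 64.7% of protein-coding genes. When lists of equal length were compared, 11 of 27 and 13 of 51 were lost with SOX2 (27.4% of all regions), and 12 of 27 and 14 of 51 with the fusion (31.1%). Of the losses, 7 of 9 epithelial ones with SOX2 and 7 of 9 with the fusion still had an entry that failed the IDR threshold, and 6 of 9 and 7 of 10 of the mesenchymal ones.

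CDH1 lost 4 regions with each construct, the most of the epithelial genes, from 7 peaks in wild type to 5 and 5. Per length, 6.83% of protein-coding genes lost as many or more with SOX2 and 7.91% with the fusion. At equal numbers of peaks, with 4 and 5 losses at CDH1, these shares were 11.8% and 13.0%. The lost regions were chr16:68731986-68732315 (7.69 in wild type), chr16:68760577-68761341 (9.32), chr16:68801778-68802755 (9.97) and chr16:68823079-68823742 (10.9). The last of them had no entry with SOX2 or with the fusion. The other 3 lie inside or upstream of the gene and kept an entry that failed the threshold in at least 1 construct list. GRHL2 lost 3 regions with each construct, each of which kept such entries in both lists. EPCAM lost 2 with each. At ESRP1 0 regions were lost, as at ZEB1. At ZEB2 chr2:144553315-144554142, at -33609 bp, was lost with SOX2 (8.43 in wild type) and called with the fusion (6.22).

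Regions gained with the fusion and not called with SOX2 numbered 4 of 33 epithelial and 11 of 65 mesenchymal (19.5% of all regions), and regions gained with SOX2 and not called with the fusion 3 and 4 (9.72%). SNAI2 had 4 of the fusion-only regions, and ESRP1, CDH2, ZEB1 and ZEB2 had 2 each, and EPCAM, GRHL2 and VIM 1 each. CDH1 and SNAI1 had 0. SOX2-only regions numbered 2 at ZEB2 and 1 each at EPCAM, GRHL2, ESRP1, CDH2 and SNAI1. The fusion list was the longer of the 2, and at equal numbers of peaks there were 10 fusion-only and 8 SOX2-only regions near the 10 genes, against 15 and 7.

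Over the other genes of both states, a gained region lay near 19 of 30 epithelial and 23 of 30 mesenchymal genes with full-length FOXA2, 19 and 26 with the CTD deletion, 24 and 25 with SOX2, and 23 and 27 with the fusion. As shares these were 63.3% and 76.7% beside 73.4% of all protein-coding genes, 63.3% and 86.7% beside 68.8%, 80.0% and 83.3% beside 75.3%, and 76.7% and 90.0% beside 76.8%. The medians with SOX2 were 0.972 gained regions per 100 kb for the epithelial and 0.952 for the mesenchymal list, and with the fusion 0.892 and 1.59, where all genes had 0.932 and 0.972. The wider lists thus did not show with SOX2 the order seen over the 10 genes, and with the fusion they did.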

How the data were processed

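ATAC-seq was run on 12 U2OS samples in 6 groups of 2. The submitters' processing notes name the build hg38 and FastQC 0.10.1, Trim Galore, Bowtie2 2.4.4, SAMtools 0.1.18, MACS2 and deepTools 2.4.1, with no parameters. The deposited peak lists give a fold enrichment (a ratio over the background of the same library, FOXA2 set) and a −log10 p for each peak, both as the authors' peak caller wrote them. In the SOX2 set each deposited list also gives a −log10 of the global IDR, and the −log10 p used here is the lower of its 2 inputs; that these are the 2 samples of the group is an assumption. The lists hold no read counts, so depth is unknown and no interval of counting error can be given. Peaks on chromosomes 1 to 22 and X were used, and overlapping peaks of a set were merged into regions, with an overlap of 1 bp counting as called.

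Genes and windows came from RefSeq (GRCh38.p14), which gave no strand for gene records. For the 6 genes without a promoter in that table the strand was taken from general knowledge. The motif search was planned for all regions and was limited to promoters, since no genome was used here. Every member is named, with its start region, its highest gained region per construct (by the lower fold enrichment of both libraries, or by −log10 p) and regions lost. Some regions are not reported here. Other regions, ACTA2, GRHL1 and JUP were chosen after their values were seen. Alternatives covered list length, thresholds, overlap, window, start distance and each library left out. The members and gene lists were chosen with earlier results of these data known. The interval code was tested on simulated peaks. Python 3.11.15, pandas 2.3.3, numpy 2.4.6 and matplotlib 3.10.9 were used.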

Additional observations from a re-analysis of the deposited data

Results flagged for a closer look

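In the list of SOX2, an entry near the CDH1 start, chr16:68738099-68738520, had a −log10 p of 2.78 and a global IDR of 0.524, so it failed the threshold. The wild type of that set had no entry within 1 kb of this start. It is given because it lies in data outside the counts above.

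At equal numbers of peaks the ZEB2 window held 2 and 2 peaks in the libraries labelled wild type of the FOXA2 set and 1 and 1 with the CTD deletion. In the SOX2 set it held 5 peaks in wild type and 9 with SOX2, a difference of 4, and 10 with the fusion, a difference of 5. Both libraries of the CTD deletion thus lay below their wild type, and the lists of SOX2 and the fusion above theirs. The difference between the sets was not tested, and how many protein-coding genes show it was not counted.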

How the results depend on the processing

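No paired analysis was possible because the values are counts from peak lists with no test, and the SOX2 set has 1 list per group. Values of single libraries within one kind of list stand in the report. Among the recomputed main counts 87 moved by over 1.5 times and 71 did not, and among values of single lists 39 moved and 75 did not. Main counts left out for a setting in the paragraphs below are ones that did not move by over 1.5 times. The share of genes with a start-site peak was higher for mesenchymal than for epithelial genes in 9 of 9 lists under each of the 4 alternatives run on it. Of these, taking all entries whatever their IDR changed only the 3 lists of the SOX2 set. With SOX2 it gave 3 of 4 epithelial and 5 of 6 mesenchymal genes. The median density was higher in mesenchymal windows in 4 of 9 lists, in 6 at equal numbers of peaks and, in gene bodies alone, in 8. With a common −log10 p in the FOXA2 set it was higher in 6, and with all SOX2-set entries in 5. No cause of these shifts was tested. Depth, which the lists do not hold, limits all counts.

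The main gains in epithelial and mesenchymal windows were 6 and 10 with full-length FOXA2 and 11 and 13 with the CTD deletion, with 0 and 1 regions lost and 3 regions only to full length and 7 only to the CTD deletion. With lists of equal length, gains were 0 and 2 with full length and 0 and 1 with the CTD deletion, with 0 regions only to either. At a common −log10 p of 5.43, full length had 3 and 8 gains, 1 loss and 5 regions of its own. The CTD deletion then had 3 and 2 gains and 1 region of its own. At a −log10 p of at least 10, gains were 1 and 1 with full length and 0 and 0 with the CTD deletion, which had 0 of its own. With a peak in 1 library sufficient, gains were 43 and 58 with full length and 54 and 68 with the CTD deletion, losses 4 and 3, and regions of their own 67 and 88. With peaks over 50% of a region, full length had 2 and 11 gains and the CTD deletion 5 and 7. In gene bodies alone, gains were 0 and 5 and 4 and 7, the CTD deletion lost 0, and 1 and 4 regions were only to one construct. With 20 kb on each side, epithelial gains were 1 and 7, and the CTD deletion lost 0. Leaving out 1 library in turn gave 6 to 41 epithelial and 10 to 52 mesenchymal gains, 0 to 2 losses and 3 to 63 regions of its own for full length. For the CTD deletion it gave 11 to 45 and 14 to 60 gains, 1 to 2 losses and 7 to 74 of its own.

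The main gains were 7 and 28 with SOX2 and 8 and 35 with the fusion, with 18 and 19 losses and 7 SOX2-only and 15 fusion-only regions. With lists of equal length, gains were 4 and 16 with SOX2 and 3 and 19 with the fusion. With all entries whatever their IDR, gains were 15 and 43 and 18 and 53, losses 29 and 29, and regions of their own 16 and 29. At a global IDR of at most 0.01, SOX2 lost 11, and the fusion gained 4 and 22. Requiring no entry at any IDR on the other side left 4 and 16 gains, 5 losses and 3 SOX2-only regions for SOX2, and 5 epithelial gains and 5 losses for the fusion. In gene bodies alone SOX2 lost 7, and the fusion gained 5 and 20, lost 8 and had 7 of its own. With 20 kb on each side SOX2 lost 9 and the fusion 10. Leaving out the ZEB2 window, chosen after seeing the data, left 17 mesenchymal gains with SOX2 and 24 with the fusion.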
